A study of Homo sapiens with 6 samples.

Results

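RNA sequencing of T24 cells, an established human bladder cancer cell line, was examined for 10 genes of TGF-beta and BMP signaling. The genes were taken by symbol and comprise 5 ligands (TGFB1, TGFB2, INHBA, GDF15 and BMP2), 2 SMADs (SMAD3 and SMAD7) and 3 ID genes (ID1, ID2 and ID3). All 10 were found among the 23152 genes of the deposited table, and all 10 passed the filter on low counts. The study overexpressed RNF112, a gene for a RING finger protein that acts as a ubiquitin ligase, and compared 3 samples of T24 with a control vector (vector) with 3 samples of the same line overexpressing RNF112 (oeRNF112). Both groups carried introduced material, were grown in RPMI 1640 with fetal bovine serum and shared 1 cell line. The labels give no time after transfection, and their treatment text describes transfection of siRNA while the group names describe a vector and overexpression. Nothing in the labels says that samples of a group came from separate cultures or days, so p-values measure the spread between these 6 samples, which may be technical.

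TGF-beta family ligands are secreted dimers that bind pairs of type I and type II serine/threonine kinase receptors. TGF-beta and activin receptors mainly phosphorylate SMAD2 and SMAD3, BMP receptors phosphorylate SMAD1, SMAD5 and SMAD9, and both kinds of SMAD enter the nucleus with SMAD4. SMAD7 is an inhibitory SMAD that blocks the receptors and is itself induced by the pathway. The ID genes are classic targets of BMP signaling, and their proteins bind basic helix-loop-helix E proteins and keep them off DNA. TGF-beta is known in epithelial cells for growth arrest and in bladder and other carcinomas also for invasion, and GDF15 is a distant family member that is widely used as a marker of cell stress.

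RNF112 itself was near the floor in vector (27, 19 and 24 counts) and abundant in oeRNF112 (29753, 36963 and 31712 counts), as the labels have it, and its counts may include reads from the construct. Total counts lay between 40029547 and 41259569 per sample, and a count of 0 allows up to 3 reads, or between 0.0727 and 0.0749 CPM (counts scaled to a fixed library total), which covers counting error only. Among bladder epithelium markers, the summed level lay between 1813 and 2248 RPKM (reads scaled by gene length and library total) in vector and between 1475 and 1713 RPKM in oeRNF112. KRT7, KRT8, KRT18 and KRT19 carried nearly all of it, whereas 5 of the 16 markers in the table, among them CDH1, KRT13 and TP63, had at most 5 counts in any sample. Of the 9 epithelial markers tested 1 was higher and 3 were lower at an adjusted p under 0.05 (44.4%, beside 18.1% of all genes tested). Summed fibroblast and muscle markers were between 1.62 and 2.04 RPKM in vector and between 2.11 and 2.23 RPKM in oeRNF112, and endothelial markers stayed at or below 0.112 RPKM. Summed leukocyte markers were between 15.5 and 16.5 RPKM in vector and between 32.9 and 41.4 RPKM in oeRNF112. CD68, a lysosomal protein gene, was the only leukocyte marker of the 5 tested with an adjusted p under 0.05 (log2 fold change 1.21), while PTPRC had a mean of 0.164 RPKM in vector and 0.105 RPKM in oeRNF112. The part of these shifts in the results below was not tested.

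The windows before the start sites are shown for 3 members that were higher in oeRNF112 and for ID1, the most abundant member, to let the sequences be read beside the values. They are the 250 bases upstream of the RefSeq start (GRCh38.p14), 5′ to 3′ on the strand of the gene. GDF15 lies at chr19:18385908-18386157 (plus strand), INHBA at chr7:41703091-41703340 (minus strand), ID2 at chr2:8681806-8682055 (plus strand) and ID1 at chr20:31605039-31605288 (plus strand). The windows of GDF15, INHBA and ID2 lie inside the gene spans given below, which begin further upstream, so other annotated starts were not searched. Capitals mark exact matches, on either strand, to any of the 8 motifs searched. In these windows the matches were CAGAC (the SMAD core), GGGCGG or its complement CCGCCC (the GC box) and TATAAA (the TATA box).
GDF15: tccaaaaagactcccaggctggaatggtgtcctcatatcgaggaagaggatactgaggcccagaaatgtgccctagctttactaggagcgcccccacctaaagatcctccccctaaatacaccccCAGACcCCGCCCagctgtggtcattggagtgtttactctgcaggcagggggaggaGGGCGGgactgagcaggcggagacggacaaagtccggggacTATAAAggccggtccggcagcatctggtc
INHBA: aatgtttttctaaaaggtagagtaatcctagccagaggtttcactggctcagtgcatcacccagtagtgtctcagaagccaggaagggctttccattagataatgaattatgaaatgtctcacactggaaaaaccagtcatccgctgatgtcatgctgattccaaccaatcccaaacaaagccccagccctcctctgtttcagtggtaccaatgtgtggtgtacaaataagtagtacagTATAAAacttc
ID2: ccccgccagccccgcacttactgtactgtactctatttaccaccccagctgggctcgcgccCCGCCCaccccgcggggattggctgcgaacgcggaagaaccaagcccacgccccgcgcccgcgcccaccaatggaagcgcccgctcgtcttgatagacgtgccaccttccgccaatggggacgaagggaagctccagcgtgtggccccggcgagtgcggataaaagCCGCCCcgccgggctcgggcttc
ID1: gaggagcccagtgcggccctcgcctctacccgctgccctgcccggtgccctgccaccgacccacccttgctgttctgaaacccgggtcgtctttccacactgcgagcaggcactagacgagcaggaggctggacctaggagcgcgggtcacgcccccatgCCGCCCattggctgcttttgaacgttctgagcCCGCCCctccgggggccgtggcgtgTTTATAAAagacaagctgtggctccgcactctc

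The GDF15 window held 1 SMAD core match, from 125 to 121 bases before the start, beside 2 GC boxes and a TATAAA from 29 to 24 bases before the start. INHBA had a single match, a TATAAA from 11 to 6 bases before the start. ID2 had 2 GC boxes and ID1 2 GC boxes with a TATAAA whose letters overlap a match on the other strand. BMP2 had no window in the sequence table. Over the 9 members with a window, CAGAC was found in 5 (GDF15, ID3, SMAD3, SMAD7 and TGFB2), and 38% of all 35116 promoters held it. TATAAA was found in 5 members against 10.7% of all promoters, and GGGCGG in 5 against 42.6%. The other 5 motifs were GGCGCC (16.4% of all promoters, in SMAD3), CACGTG (6.34%, in SMAD3 and TGFB2), TGANTCA (6.57%, in SMAD3), TGACGTCA (1.65%, in no member) and TGATGNAA (3.14%, in no member). SMAD3 was searched in 5 windows and SMAD7 in 3, which gives these members more letters to match, and in TGFB2 the CAGAC and CACGTG matches shared 1 base. A stretch just after the RefSeq start was found near the start of 0 of the 4 GENCODE 29 transcripts of TGFB2. The TGFB2 window ends at chr1:218345335, upstream of the gene span given below, so its RefSeq start differs from that annotation. For the first SMAD3 window the stretch was found in 0 of 15 transcripts, so its start differs from that annotation or was not matched. Each match is a string of letters and no measure of binding.

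Of the 10 members, 4 rose in oeRNF112, namely GDF15, ID2, BMP2 and INHBA. Their log2 fold changes were between 0.57 and 1.22, and the 6 other members did not pass the test. Over all 14467 genes tested, 18.1% had an adjusted p under 0.05 (edgeR's quasi-likelihood test, Benjamini-Hochberg adjustment), 9.97% higher and 8.14% lower. No member was called lower by edgeR or by DESeq2. At an unadjusted p under 0.05 there were 5 members higher and 0 lower. At least 4775 of the 14467 genes tested met that threshold in either direction. The same background holds for the unadjusted counts of the lists below. The median log2 fold change of the members was 0.22, beside 0.00 over all genes tested, whose quartiles were -0.20 and 0.24. The normalized values of the groups were apart in the higher direction for 4 members, against 18.8% of all genes, and in the lower direction for 0 members, against 17.9% of all genes. Over all genes, 1442 were higher and 1178 lower, and with library totals in place of TMM factors 2020 were higher and 663 lower. Since RNA was taken from whole cultures, fewer cells of a kind and less RNA per cell cannot be told apart. Without vector replicate 1 the number of members called was 2, and it was 3 without vector replicate 3 or oeRNF112 replicate 3. Of all genes tested, these fits called 1061 of 14768, 1932 of 14774 and 1446 of 14689, in that order.

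**Figure D1:**
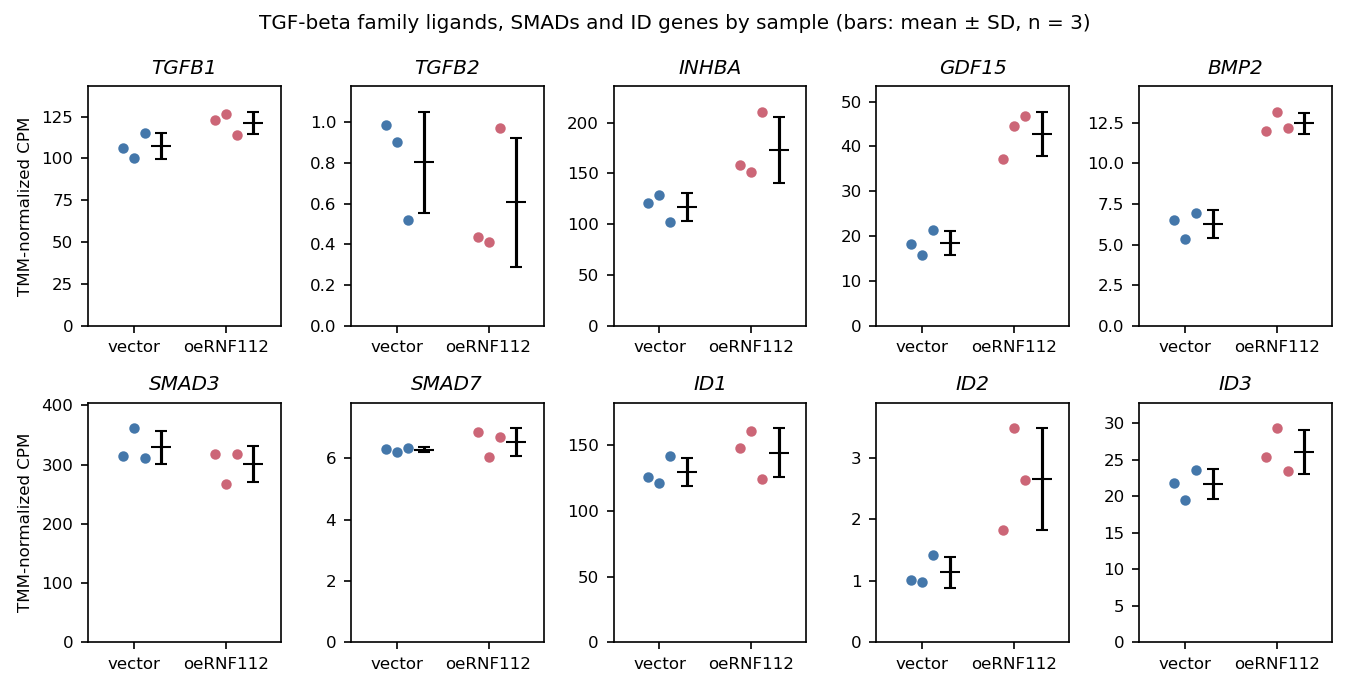
TMM-normalized CPM of each member (linear axes from 0, a scale per gene), with 1 point per sample, vector in blue and oeRNF112 in red, and the mean ± SD of 3 samples beside them in black. In GDF15, BMP2, INHBA and ID2 all 3 oeRNF112 points lie above all 3 vector points, and in the other 6 genes the groups overlap.

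**Figure D2:**
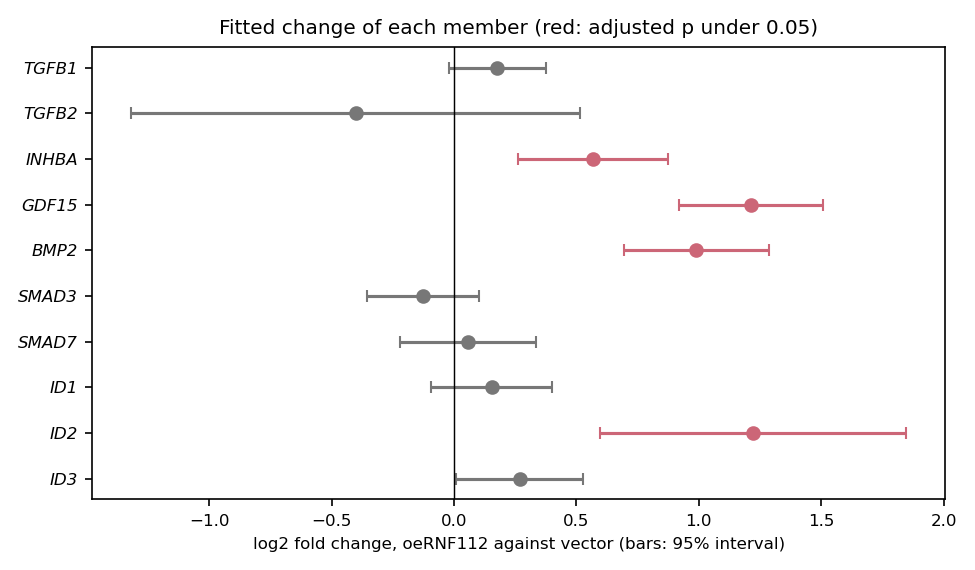
Fitted log2 fold change of each member, oeRNF112 against vector, with its 95% interval from edgeR's test, red where the adjusted p is under 0.05. GDF15 (1.21), ID2 (1.22), BMP2 (0.99) and INHBA (0.57) are red, and the interval of TGFB2 is the widest of the 10, from -1.32 to 0.52.

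GDF15 encodes growth differentiation factor 15, a circulating ligand of the GFRAL receptor, and lies at chr19:18374731-18389176 on the plus strand (GENCODE 29, GRCh38). Its normalized level was 18.3, 15.8 and 21.3 CPM in the vector samples and 37.2, 44.5 and 46.7 CPM in the oeRNF112 samples. The lowest oeRNF112 sample was above the highest vector sample. The mean went from 18.5 ± 2.74 to 42.8 ± 4.97 CPM (SD, n = 3 each). Its log2 fold change was 1.21 (standard error 0.132, 95% interval 0.92 to 1.51, edgeR adjusted p = 0.000463), or 2.32-fold, and it ranked 109 of the genes tested by p-value. GDF15 kept an adjusted p under 0.05 in all 15 alternatives.

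BMP2, a ligand of the BMP branch best known for bone formation, lies at chr20:6767664-6780280 on the plus strand. It had 259, 213 and 268 counts in vector and 498, 542 and 516 counts in oeRNF112, which is 6.55, 5.32 and 6.94 CPM against 12.01, 13.2 and 12.2 CPM. The 3 oeRNF112 samples were close to one another, with a coefficient of variation of 5.07% beside 13.5% in vector, and the groups were apart. BMP2 was 1.99-fold higher (log2 fold change 0.99, standard error 0.132, 95% interval 0.70 to 1.28, edgeR adjusted p = 0.00132). It too kept an adjusted p under 0.05 in all 15 alternatives.

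INHBA encodes the inhibin beta A subunit, whose dimer is activin A, a ligand that signals through SMAD2 and SMAD3, and lies at chr7:41667168-41705834 on the minus strand. Its level was 120, 128 and 102 CPM in vector and 158, 152 and 211 CPM in oeRNF112. All oeRNF112 samples were above all vector samples, and oeRNF112 replicate 3 was far above the other two. The log2 fold change was 0.57 (standard error 0.137, 95% interval 0.26 to 0.87, edgeR adjusted p = 0.0195), or 1.48-fold. The change missed the threshold when single samples were left out. Without oeRNF112 replicate 3 it was 0.40 (edgeR adjusted p = 0.0547), without vector replicate 3 it was 0.48 (edgeR adjusted p = 0.0601) and without vector replicate 1 it was 0.60 (edgeR adjusted p = 0.073).

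TGFB1, the main ligand that gives the pathway its name, lies at chr19:41301587-41353911 on the minus strand. It had 106, 100 and 115 CPM in vector and 123, 127 and 114 CPM in oeRNF112. The groups met at vector replicate 3 and oeRNF112 replicate 3. Its log2 fold change was 0.18 (standard error 0.089, 95% interval -0.02 to 0.37, edgeR adjusted p = 0.197), which did not pass. On the scale of library totals the change was 0.27 with an edgeR adjusted p of 0.0486, and the deposited RPKM values, at most 39.7 in vector and at least 42.9 in oeRNF112, were apart. With library totals, by which RPKM is also scaled, the median log2 fold change over all genes was 0.10. A stretch of 215 exonic bases (6.64%) of TGFB1 is also exonic in HNRNPUL1 on the opposite strand. HNRNPUL1, an RNA-binding protein gene, fell (log2 fold change -0.35, edgeR adjusted p = 0.0184), and how the counting treated strand is not given in the sources used here.

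TGFB2 lies at chr1:218346235-218444619 on the plus strand and was the rarest member. It had 39, 36 and 20 counts in vector and 18, 17 and 41 counts in oeRNF112. The oeRNF112 samples held the 2 lowest counts and also the highest, so the groups overlapped. The log2 fold change was -0.40 with a 95% interval from -1.32 to 0.52 (edgeR adjusted p = 0.529), and it was -0.92 without oeRNF112 replicate 3 (edgeR adjusted p = 0.213) and -0.18 without oeRNF112 replicate 2 (edgeR adjusted p = 0.812). In the annotation TGFB2-OT1, on the same strand, covers 1371 exonic bases (26.6%) of TGFB2.

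Neither SMAD passed the test. SMAD3, the receptor-regulated SMAD of the TGF-beta and activin branch, lies at chr15:67063763-67195195 on the plus strand. Its level was 314, 362 and 311 CPM in vector and 319, 267 and 319 CPM in oeRNF112. Vector replicate 2 was the highest and oeRNF112 replicate 2 the lowest, and the other 4 samples lay together. The log2 fold change was -0.13 (95% interval -0.36 to 0.10, edgeR adjusted p = 0.418), and without oeRNF112 replicate 2 it was -0.03. SMAD7, at chr18:48919853-48952052 on the minus strand, had 6.29, 6.20 and 6.35 CPM in vector and 6.87, 6.03 and 6.70 CPM in oeRNF112. The vector samples lay inside the range of the oeRNF112 samples, with a log2 fold change of 0.06 (95% interval -0.22 to 0.34, edgeR adjusted p = 0.779). That interval leaves a change of up to 1.26-fold upward or to 0.859 of the vector level possible for SMAD7.

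Of the 3 ID genes, ID2 passed the test, and ID1 and ID3 did not. ID1, at chr20:31605283-31606515 on the plus strand, had 126, 121 and 142 CPM in vector and 147, 161 and 124 CPM in oeRNF112. The oeRNF112 group held the highest sample, but its replicate 3 lay within the vector range. The log2 fold change of ID1 was 0.15 (95% interval -0.09 to 0.40, edgeR adjusted p = 0.368). ID3, at chr1:23557918-23559794 on the minus strand, had 21.8, 19.5 and 23.7 CPM in vector and 25.4, 29.4 and 23.5 CPM in oeRNF112. Again oeRNF112 replicate 3 met vector replicate 3. The deposited RPKM values of ID3, at most 23.8 in vector and at least 25.9 in oeRNF112, were apart. The log2 fold change of ID3 was 0.27 (95% interval 0.01 to 0.53, edgeR adjusted p = 0.14), and with library totals it was 0.36 with an edgeR adjusted p of 0.0462. The median over all genes was 0.10 with library totals, by which RPKM is also scaled.

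ID2, at chr2:8678845-8684453 on the plus strand, rose. It had 40, 39 and 55 counts in vector and 76, 143 and 112 counts in oeRNF112, which is 1.01, 0.97 and 1.42 CPM against 1.83, 3.48 and 2.64 CPM. The groups were apart, with a coefficient of variation of 31.0% among the oeRNF112 samples. ID2 was 2.33-fold higher (log2 fold change 1.22, standard error 0.281, 95% interval 0.59 to 1.85, edgeR adjusted p = 0.0161), and the interval of the fold was 1.51 to 3.60. Without vector replicate 1 the log2 fold change was 1.16 (edgeR adjusted p = 0.071). ID2-AS1, an antisense transcript that shares 38 exonic bases with ID2, had 16, 20 and 30 counts in vector and 26, 16 and 19 counts in oeRNF112. Its log2 fold change of -0.20 did not pass (edgeR adjusted p = 0.746).

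Differences between members were examined as ratios of RPKM within each library, so that the scaling of the library cancels. These 6 ratios were chosen after the values had been seen, and with 3 samples a group the exact permutation test cannot go below p = 0.1. The log2 ratio of ID2 to ID1 was -7.05, -7.04 and -6.72 in vector and -6.42, -5.62 and -5.64 in oeRNF112. It was higher by 1.05 in oeRNF112, with no overlap (two-sided exact permutation test, p = 0.1, adjusted p = 0.12 over the 6 ratios). ID2 to ID3 was higher by 0.93, GDF15 to TGFB1 by 1.04, BMP2 to TGFB1 by 0.82 and BMP2 to SMAD7 by 0.94, each with no overlap and the same p. INHBA to TGFB1 differed by 0.38 with overlapping groups (exact permutation test, p = 0.2, adjusted p = 0.2). No other test of these ratios was run.

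**Figure D3:**
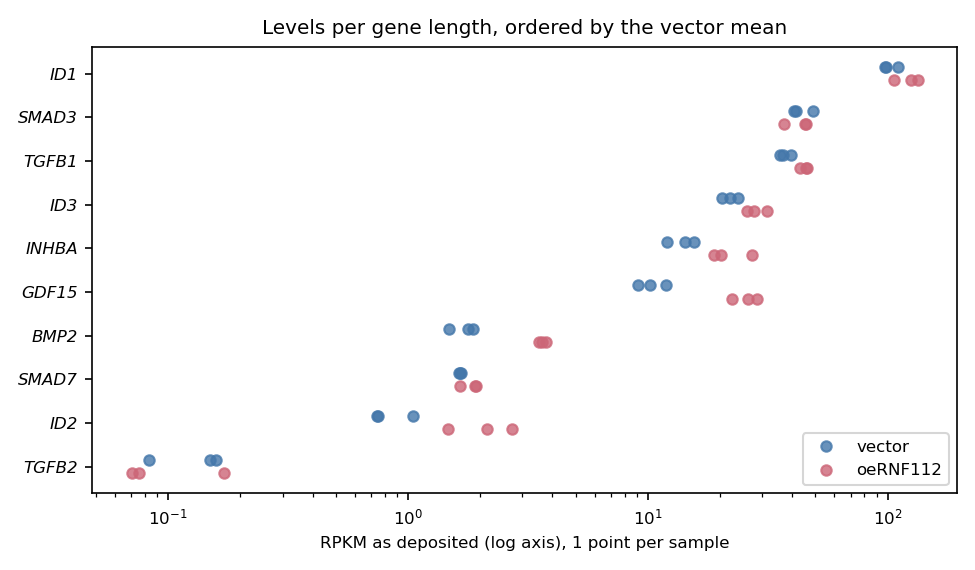
Deposited RPKM of each member (log axis) in the 6 samples, vector in blue and oeRNF112 in red, ordered from top to bottom by the vector mean. ID1 is at the top with 102.5 RPKM in vector and TGFB2 at the bottom with 0.131 RPKM. The red points of GDF15, BMP2, INHBA and ID2 lie to the right of the blue ones. So do those of TGFB1 and ID3, which did not pass the test. RPKM is scaled by library totals, with which edgeR called 2020 of all genes higher, against 1442 with TMM factors. The share of all genes apart in RPKM was not counted.

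Levels of different genes were compared per gene length, as deposited RPKM, so their order rests on the lengths used there. These imply 1719 bases for GDF15, 8111 for INHBA, 950 for ID3, 1299 for ID2 and 3698 for SMAD7. GENCODE 29 gives 2087, 8302, 1797, 2205 and 5033 exonic bases. With the GENCODE 29 lengths the vector mean of ID3 would lie below that of INHBA. The oeRNF112 mean of ID2 would then lie below that of SMAD7. Other lengths, with which more genes may change places, were not tried. In vector the order was ID1 at 102.5 RPKM, SMAD3 at 43.7, TGFB1 at 37.3, ID3 at 22.1, INHBA at 14.0, GDF15 at 10.4, BMP2 at 1.71, SMAD7 at 1.64, ID2 at 0.846 and TGFB2 at 0.131. Only BMP2 and SMAD7 had overlapping ranges among neighbours in this order. In oeRNF112 ID1 was again first at 121.6 RPKM, followed by TGFB1 at 45 and SMAD3 at 42.7, which overlapped. ID3 at 28.3, GDF15 at 25.7 and INHBA at 22.1 overlapped as neighbours. At the deposited lengths GDF15 lay below INHBA in every vector sample and above INHBA in every oeRNF112 sample. With the GENCODE 29 lengths GDF15 would not lie above INHBA in every oeRNF112 sample. BMP2 at 3.63 RPKM was apart from its neighbours, ID2 at 2.10 overlapped SMAD7 at 1.83, and TGFB2 at 0.106 was last. ID2, the least abundant of the ID genes in either group, remained far below ID1 and ID3 in all 6 samples.

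Of 162 further pathway genes in the table, 129 were tested, and 31 were higher and 13 lower in oeRNF112. This is 34.1% called, beside 18.1% of all genes, and the median log2 fold change was 0.15. Without vector replicate 1 the counts were 16 higher and 7 lower, beside 702 higher and 359 lower of all 14768 genes in that fit. Without oeRNF112 replicate 1 they were 21 higher and 8 lower, beside 832 higher and 431 lower of all 14701 genes. Some genes stand on several of the lists below. The lists were written with earlier results of these data known, and the counts are descriptions. Where a list had calls, its named genes were picked by their small p-values. That the groups of such genes were apart largely follows from this choice and is no further support.

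Among other ligands, 3 of the 11 tested rose, which is 27.3% called, beside 18.1% of all genes. None fell by edgeR or DESeq2, and 1 had a lower value at an unadjusted p under 0.05. The groups were apart in the higher direction for 5 of the 11 and in the lower direction for 3, against 18.8% and 17.9% of all genes. The 11 other ligands in the table had at most 5 counts in any sample. BMP6, a BMP ligand that also induces hepcidin, had 15, 8 and 16 counts in vector and 90, 103 and 96 in oeRNF112. BMP4, a ligand close to BMP2, had 3, 5 and 5 counts in vector and 24, 34 and 34 in oeRNF112. INHBE, the inhibin beta E subunit, had 21, 29 and 22 counts in vector and 60, 48 and 80 in oeRNF112. All 3 were rare transcripts whose groups were apart. Their log2 fold changes were 2.80 (BMP6, edgeR adjusted p = 0.000411), 2.71 (BMP4, edgeR adjusted p = 0.00232) and 1.30 (INHBE, edgeR adjusted p = 0.014), and the counts of BMP4 in vector are too few to fix its size. INHBE missed the threshold without vector replicate 1 (log2 fold change 1.22, edgeR adjusted p = 0.0656) and without oeRNF112 replicate 3 (log2 fold change 1.10, edgeR adjusted p = 0.0651).

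Of 13 receptors and co-receptors tested, 2 rose, and none fell by edgeR or DESeq2 (0 at an unadjusted p under 0.05). The share called was 15.4%, not above the 18.1% of all genes. TGFBR3, or betaglycan, a co-receptor that presents TGF-beta2 and inhibin, had 3.77, 5.57 and 2.93 CPM in vector and 8.63, 7.47 and 10.4 CPM in oeRNF112 (log2 fold change 1.11, edgeR adjusted p = 0.0094). ACVR1, a type I receptor for BMPs, went from a range of 32.2 to 34.9 CPM to one of 41.8 to 45.2 CPM (log2 fold change 0.36, edgeR adjusted p = 0.0203). The groups were apart in both. TGFBR3 missed the threshold without vector replicate 1 (log2 fold change 1.06, edgeR adjusted p = 0.055) and with limma on log2(RPKM + 1) (limma adjusted p = 0.0516) or log2(RPKM + 0.1) (limma adjusted p = 0.0558). ACVR1 missed it without vector replicate 1 (0.38, edgeR adjusted p = 0.0766), oeRNF112 replicate 1 (0.37, edgeR adjusted p = 0.0753) or oeRNF112 replicate 2 (0.34, edgeR adjusted p = 0.0553).

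Genes of ligand storage, activation and antagonism were called at 55%, beside 18.1% of all genes, with 8 of 20 higher and 3 lower. Their median log2 fold change was 0.24. BMPER, a secreted BMP-binding protein, had 2.12, 1.67 and 1.79 CPM in vector and 6.97, 7.32 and 5.08 CPM in oeRNF112 (log2 fold change 1.79, edgeR adjusted p = 0.000415). FSTL3, a follistatin-like protein that binds activin, rose with a log2 fold change of 0.72 (edgeR adjusted p = 0.00334), and BAMBI, a decoy receptor that lacks a kinase domain, with one of 0.99 (edgeR adjusted p = 0.00225). LTBP2, a matrix protein of the latent TGF-beta binding protein family, fell from 204, 258 and 191 CPM to 118, 88.0 and 121 CPM. Its groups were apart, with a log2 fold change of -0.99 (edgeR adjusted p = 0.00206).

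**Figure D4:**
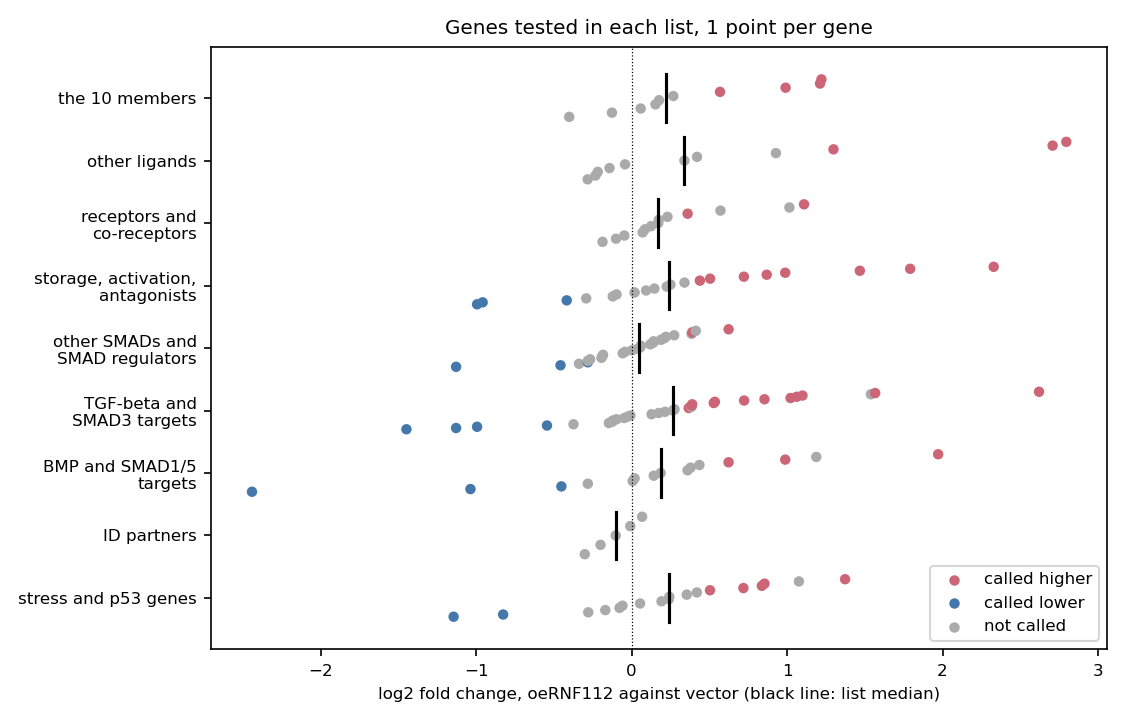
log2 fold change (oeRNF112 against vector) of every gene tested in each list, 1 point per gene, red where called higher, blue where called lower and grey where not called, with a black line at the list median. The members have 4 red and no blue points, the TGF-beta and SMAD3 targets 12 red and 4 blue, and the ID partners have grey points only.

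The other SMADs and their regulators were called at 19.2%, close to the 18.1% of all genes, with 2 of 26 higher, 3 lower and a median of 0.05. PMEPA1, a TGF-beta-induced membrane protein that binds receptor-regulated SMADs, fell from 51.4, 52.2 and 56.3 CPM to 27.5, 24.3 and 21.2 CPM (log2 fold change -1.13, edgeR adjusted p = 0.000300). SMAD1, a SMAD of the BMP branch, fell from 30.5, 27.8 and 26.5 CPM to 20.0, 20.5 and 21.2 CPM (log2 fold change -0.46, edgeR adjusted p = 0.0106). Both had groups that were apart, unlike SMAD3 and SMAD7. SMURF2, a ubiquitin ligase that acts on SMADs and receptors, rose with a log2 fold change of 0.39 (edgeR adjusted p = 0.0216), and SMAD9, also of the BMP branch, with one of 0.62 (edgeR adjusted p = 0.0298). SMAD1 missed the threshold without vector replicate 1 (-0.39, edgeR adjusted p = 0.0726) or oeRNF112 replicate 1 (-0.44, edgeR adjusted p = 0.0588). SMURF2 missed it in 4 of the 6 fits that leave out a sample, with values from 0.33 (edgeR adjusted p = 0.0601, without vector replicate 3) to 0.41 (edgeR adjusted p = 0.0857, without vector replicate 1), the others being those without oeRNF112 replicate 1 (0.39) and oeRNF112 replicate 3 (0.33). SMAD9 held in 1 of these 6, that without vector replicate 2, and without vector replicate 3 it was 0.49 (edgeR adjusted p = 0.0668).

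Of 31 TGF-beta and SMAD3 target genes, 12 rose and 4 fell (51.6% called, beside 18.1% of all genes). Their median log2 fold change was 0.27. ANGPTL4, which inhibits lipoprotein lipase and is also a target of PPARs, had 10.1, 8.80 and 8.39 CPM in vector and 57.7, 65.3 and 45.04 CPM in oeRNF112 (log2 fold change 2.62, edgeR adjusted p = 1.54e-05). TIMP3, an inhibitor of metalloproteinases, went the other way, from 14.4, 16.2 and 15.4 CPM to 6.10, 4.82 and 5.93 CPM (log2 fold change -1.45, edgeR adjusted p = 0.000184). The groups were apart in both, and together with PMEPA1 these genes moved in both directions.

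BMP and SMAD1/5 targets other than the ID genes were split, with 3 of 15 higher, 3 lower and a median of 0.19. This is 40% called, beside 18.1% of all genes. HES1, a repressor that is also a target of Notch, fell from 24.2, 22.8 and 26.6 CPM to 12.2, 12.5 and 11.1 CPM (log2 fold change -1.04, edgeR adjusted p = 0.00035). TNFRSF11B, or osteoprotegerin, a decoy receptor for RANKL, fell from 114, 120 and 92 counts to 35, 10 and 18 counts (log2 fold change -2.44, edgeR adjusted p = 0.00209). BAMBI and SMAD9, given above, were among the 3 that rose, so that ID2 rose beside targets of either direction.

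None of the 5 ID protein partners tested passed by edgeR in either direction. At an unadjusted p under 0.05 there were 0 higher and 1 lower, and DESeq2 called 1 lower. USP1, a deubiquitinase reported to stabilize ID proteins, had 157, 152 and 139 CPM in vector and 143, 143 and 160 CPM in oeRNF112 (log2 fold change -0.01, edgeR adjusted p = 0.957). COPS5, a subunit of the COP9 signalosome, had 98.5, 94.0 and 102 CPM in vector and 79.9, 88.2 and 70.8 CPM in oeRNF112 (log2 fold change -0.30, edgeR adjusted p = 0.0591). It is the gene that DESeq2 called (adjusted p = 0.0381), and edgeR called it without vector replicate 2 (-0.33, adjusted p = 0.0426) or oeRNF112 replicate 2 (-0.37, adjusted p = 0.0408).

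GDF15 is also a target of the p53 and integrated stress responses. Of 18 stress and p53 genes 5 rose and 2 fell (38.9% called, beside 18.1% of all genes). Their median log2 fold change was 0.24. DDIT3, the stress transcription factor CHOP, had 27.3, 23.3 and 31.5 CPM in vector and 66.6, 83.1 and 63.1 CPM in oeRNF112 (log2 fold change 1.37, edgeR adjusted p = 0.000344). ATF3, a transcription factor of the same response, rose with a log2 fold change of 0.84 (edgeR adjusted p = 0.00246), and CDKN1A, the p53 target p21, with one of 0.85 (edgeR adjusted p = 0.000463). TP53I3, another p53 target, fell from 48.4, 45.6 and 52.1 CPM to 22.5, 24.6 and 18.9 CPM (log2 fold change -1.15, edgeR adjusted p = 0.000314). All 4 had groups that were apart, and the p53 targets CDKN1A and TP53I3 moved in opposite directions. The part of these genes in the rise of GDF15 was not tested.

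Transcripts that neighbour or oppose a member did not pass the test, with 0 of the 3 tested called by edgeR or DESeq2 and 0 at an unadjusted p under 0.05. Next to TGFB1, TMEM91 had 37, 26 and 39 counts in vector and 60, 58 and 46 in oeRNF112 (log2 fold change 0.60, edgeR adjusted p = 0.155), and B9D2 had 65, 58 and 87 in vector and 56, 66 and 39 in oeRNF112 (log2 fold change -0.46, edgeR adjusted p = 0.275). TGFB2-AS1 had at most 1 count and INHBA-AS1 between 4 and 19 counts per sample, and neither was tested.

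**Figure D5:**
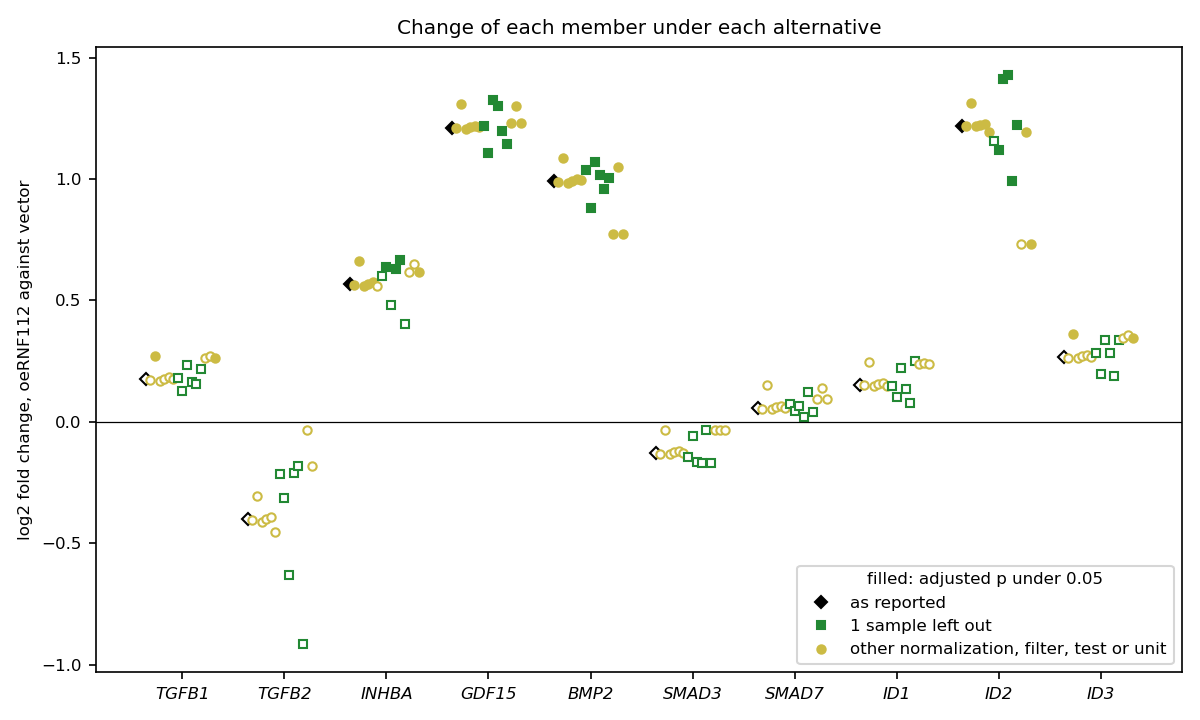
log2 fold change (oeRNF112 against vector) of each member as reported (black diamonds), with each sample left out (green squares) and with other normalizations, filters, tests or units (yellow circles), filled where the adjusted p is under 0.05. GDF15 and BMP2 are filled in every fit, INHBA and ID2 in most, and the 10 genes keep their sign in all fits shown.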

How the data were processed

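T24 cells with vector (n = 3) and oeRNF112 (n = 3) were profiled by RNA-seq from a stranded mRNA kit. The authors deposited whole-number counts of reads per gene, not normalized, and RPKM values, which the authors scaled by gene length and library total. For 16237 of 16237 genes above 0 in all samples, both tables gave a single length within 0.1%, so they hold the same measurement. The submitters' processing notes name Trimmomatic 0.36, featureCounts, Subread 1.5.1 and GRCh38. The aligner's settings, the annotation and the strand setting are not given in the sources used here.

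The counts were fitted with edgeR 4.0.16 in R 4.3.3 (filterByExpr, TMM factors, quasi-likelihood test without covariates, 14467 genes), with Benjamini-Hochberg adjustment over all genes tested and a threshold of 0.05. Log2 fold changes are oeRNF112 against vector. The script was tested on simulated data. Alternatives were DESeq2 1.42.0, its size factors, library totals, no filter, at least 10 counts in every sample, a replicate block, each sample left out, and limma 3.58.1 on log2(RPKM + 1), log2(RPKM + 0.1) or, for the former, above a mean RPKM minimum of 1. The members and lists were chosen with earlier results of these data known. The text names all 10 members, RNF112, up to 4 genes per pathway list with the smallest p-values among those that passed (or the 2 with the highest mean count where none passed), and each antisense or neighbouring transcript. The result of 1 gene under this rule is not reported here. HNRNPUL1 and single cell type markers were named after their values had been seen. Positions are those of GENCODE 29 on GRCh38.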

Additional observations from a re-analysis of the deposited data

How the results depend on the processing

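No member changed sign in any of its alternatives, and GDF15 and BMP2 stayed past the threshold in all 15. With library totals in place of TMM, 663 genes were lower and 75.3% of calls were higher, against 55.0%, the median of all genes moved from 0.00 to 0.10, and TGFB1 (0.27) and ID3 (0.36) passed. Both also passed with limma above a mean RPKM minimum of 1 (0.26 and 0.35). With limma on log2(RPKM + 1), + 0.1 and with that minimum, 424, 430 and 603 genes were lower. Log2(RPKM + 1) left 2 members called, with INHBA at 0.62 and ID2 at 0.73 not past the threshold, and 7 pathway genes lower. With + 0.1, INHBA (0.65) was not past it and 8 pathway genes were lower. Leaving out each sample gave 1061 to 3387 genes called, 702 to 1841 higher and 359 to 1546 lower, with 2 to 4 members called, 16 to 35 pathway genes higher and 7 to 13 lower, INHBA between 0.40 and 0.67 and ID2 between 0.99 and 1.43. The lowest counts came without vector replicate 1. USP1 changed sign with library totals (0.0851) and with the 3 limma fits (0.0824, 0.0843 and 0.0824), and went from -0.0652 to 0.0421 over the samples left out, and ID2-AS1 from -0.42 to 0.11. Among named pathway genes, TGFBR3 and SMAD9 lost the call with limma on log2(RPKM + 1) and + 0.1, and SMAD1 with the former. The causes were not tested. The interval of TGFB2 was the widest among the members.

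The labels number the samples 1 to 3 in both groups but do not say whether same-numbered samples share a day or culture. The deviations of same-numbered samples correlated negatively (-0.12, -0.36 and -0.30). With the replicate block 876 genes were called, 618 higher and 258 lower, with 20 pathway genes higher and 8 lower, and INHBA at 0.56 was not past the threshold (edgeR adjusted p = 0.0922). The other 3 members stayed past it, and INHBE, ACVR1, SMAD1, SMURF2 and SMAD9 did not.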
